A study of Mus musculus with 5 samples.

Results

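Cxcl1 and 8 other genes of cytokine signalling were followed in mouse hepatocytes through a fast: Cxcl1, Nfkbia, Socs2, Socs3, Stat3, Il6ra, Il1r1, Cebpb and Cebpd, which are 9 of the 32285 genes in the deposited matrix. They were chosen by their symbols and by the measured level of Cxcl1, which was high in the fed library and nearly absent after 8 h of fasting, so the time courses given here are descriptions. The animals were male wild-type C57BL/6J mice on normal chow. For 3 days they were fed for 8 h in the daytime and fasted for 16 h overnight, and on the day of the experiment they had chow and water with 20% sucrose. The fed library (0 h) came from livers taken at 13:00, after 4 h of feeding. The 4 fasted libraries had been without food and sucrose water for 4 h (taken at 17:00), for 8 h (21:00), for 16 h (5:00) or for 24 h (13:00). Isolated hepatocytes of each time point went into 1 droplet library with 3′ counting, so fasting time, clock hour and library cannot be told apart, except that 0 h and 24 h share a clock hour. The labels do not say how many mice a library holds.

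A barcode was taken as a hepatocyte if it held 1000 or more UMIs (unique molecular identifiers, each standing for 1 captured RNA molecule) and 500 or more genes, with 2 to 30% of its UMIs from mitochondrial genes. This kept 7826, 4567, 2716, 9125 and 4576 cells at 0, 4, 8, 16 and 24 h, with 33521626 to 45532684 nuclear-encoded UMIs per library. Levels are CPM, the share of these UMIs scaled to 1000000, summed over the cells of a library. With 1 library per time there is no replicate check and no test. Intervals are exact 95% intervals for counting error only, and they say nothing of the spread between mice. The hepatocyte markers were abundant in every library, with the 8 markers together between 89733 and 113126 CPM. The libraries were not alike in other ways: the median nuclear UMI count per cell ran from 3756 at 16 h to 13532 at 8 h, and cells with 3 or more markers of another cell type made up 3.30% of the fed library and 0.26% to 1.42% of the others. Among the kept cells, 73 barcode sequences occurred in more than 1 library.

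CXCL1 is a chemokine that draws neutrophils, and hepatocytes can make it in response to inflammatory signals. IL-1 binds its receptor IL1R1 and acts through NF-kB, which turns on Cxcl1 and also Nfkbia, the gene of its own inhibitor IκBα. IL-6 binds IL6RA and acts through STAT3, which turns on Socs3, a feedback inhibitor of the receptor. SOCS2 restrains growth hormone signalling through STAT5. C/EBPβ and C/EBPδ are transcription factors that drive acute-phase genes in liver.

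The sequences just before the start sites of Cxcl1, Nfkbia and Socs3 are shown because they hold a textbook binding motif of the factors above. The transcripts of Cxcl1 and Socs3 were highest in the fed library and that of Nfkbia was lowest there. They are RefSeq sequences (GRCm38.p6), which covered 7 of the 9 genes. Each runs 5′ to 3′ on the gene's strand from 250 bases before the RefSeq start and stops at the first base that an annotated exon of the gene holds. The Socs3 stretch lies within the annotated span of the gene, whose 5′ end is at 117970047 in GENCODE, in an intron of the transcript that starts there and before the starts of its other transcripts. Capitals mark matches to the NF-kB consensus in Cxcl1 and Nfkbia and to the STAT element TTCNNNGAA in Socs3. The Cxcl1 stretch is chr5:90890995-90891240 (plus strand), the Nfkbia stretch is chr12:55492648-55492897 (minus strand) and the Socs3 stretch is chr11:117969452-117969616 (minus strand).
Cxcl1: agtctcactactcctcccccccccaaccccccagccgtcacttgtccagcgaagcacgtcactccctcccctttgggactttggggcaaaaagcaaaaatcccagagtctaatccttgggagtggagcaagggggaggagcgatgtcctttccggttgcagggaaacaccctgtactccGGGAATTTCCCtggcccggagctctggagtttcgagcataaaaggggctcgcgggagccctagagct
Nfkbia: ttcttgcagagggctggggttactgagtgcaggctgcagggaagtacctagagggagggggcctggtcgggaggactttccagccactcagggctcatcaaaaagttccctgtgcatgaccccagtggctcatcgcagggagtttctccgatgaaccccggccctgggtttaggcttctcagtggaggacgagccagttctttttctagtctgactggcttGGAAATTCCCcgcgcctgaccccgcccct
Socs3: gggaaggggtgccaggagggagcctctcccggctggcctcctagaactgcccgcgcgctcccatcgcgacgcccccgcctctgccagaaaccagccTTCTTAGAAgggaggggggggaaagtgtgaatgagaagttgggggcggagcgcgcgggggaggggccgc
In the 250 bases before the RefSeq start, both strands were searched for the NF-kB consensus, the C/EBP consensus, TTCNNNGAA and TTCNNNNGAA. The Cxcl1 match spans -71 to -61, where overlapping matches on both strands join, and the Nfkbia match lies at -29 to -20 on the opposite strand. Read on their own strands, both hold the same 10 bases, GGGAATTTCC. The Socs3 element lies at -154 to -146. The NF-kB consensus was found in 3.90% of all 32851 promoter windows of that length and TTCNNNGAA in 7.02%. The only other match was an NF-kB consensus before the second of the 2 listed starts of Il1r1. These are letter matches, not measured binding.

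Cxcl1 was a transcript of the fed library. Its level was 133, 8.89, 0.53, 16.0 and 9.79 CPM in order of fasting time, from 5034 UMIs in the fed library and 18 UMIs at 8 h. The fed library stood above every fasted one, the 8 h library lay below every other, and the 4 h and 24 h libraries were not separated by counting error. The fed level was 14.98, 250.3, 8.35 and 13.6 times those of the fasted libraries in the same order, with an interval of 158 to 423 for the 8 h library. At 8 h, 1 cell held 7 of the 18 UMIs. The 0 h and 24 h libraries, taken at the same clock hour, differed by -3.77 on the log2 scale (-3.92 to -3.61). The gene lies on chromosome 5 (90891241 to 90893115, plus strand, GENCODE on GRCm38), and no exon of another annotated gene overlaps it.

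**Figure D1:**
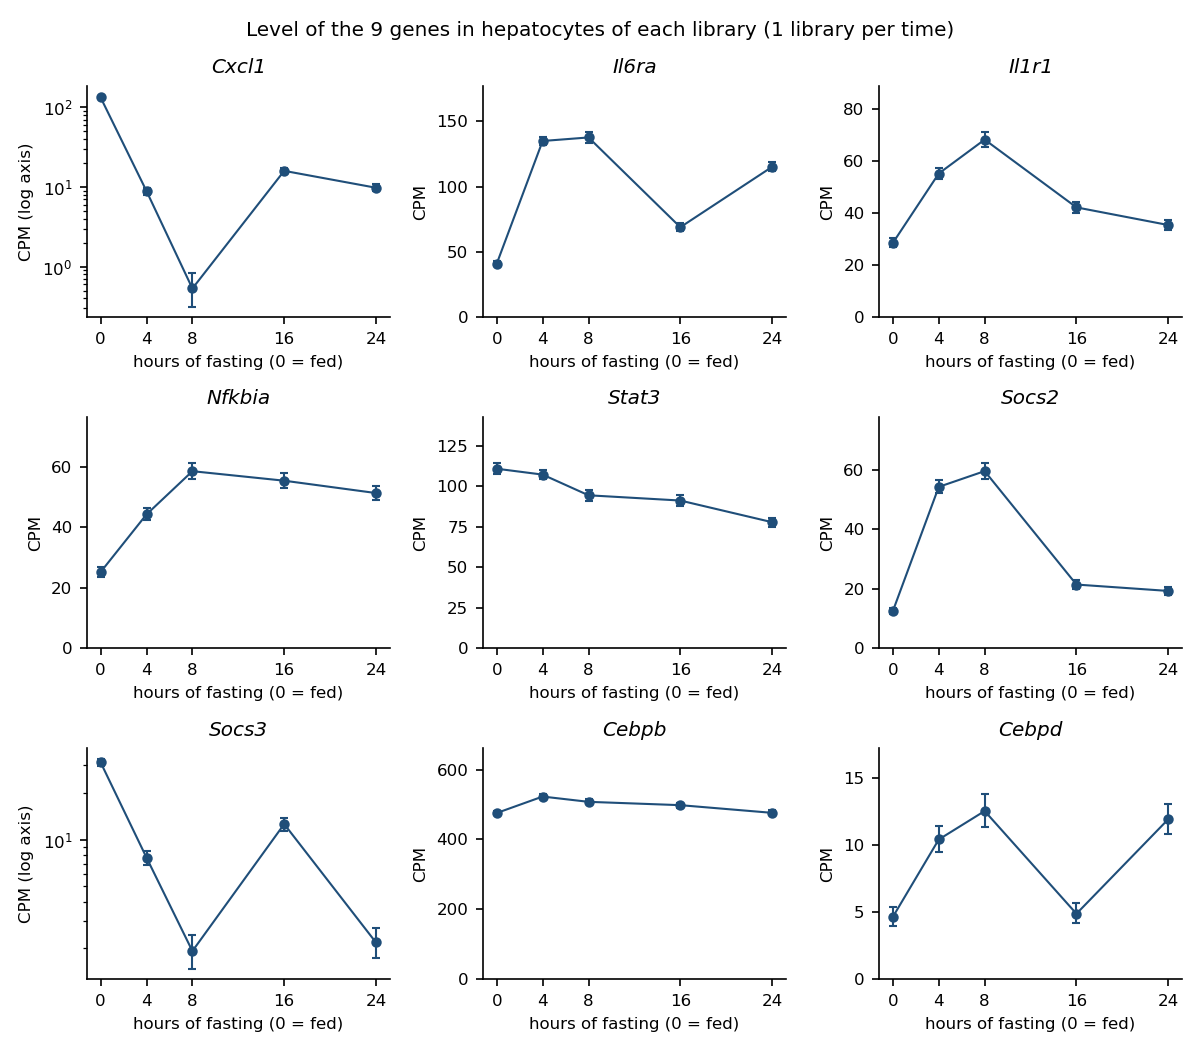
Level of each of the 9 genes (CPM, vertical axis; log axis for Cxcl1 and Socs3) against hours of fasting, 1 library per point, with exact 95% Poisson intervals as bars. Cxcl1 is at 133 CPM in the fed library and 0.53 at 8 h, while Il6ra, Il1r1, Nfkbia, Socs2 and Cebpd are lowest in the fed library and highest at 8 h. The highest points of Il6ra, Nfkbia and Cebpd are not separated from the next by counting error, nor is the lowest of Cebpd.

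The 2 receptor genes went the other way. Il6ra, which encodes the ligand-binding chain of the IL-6 receptor, stood at 40.9, 135, 138, 68.8 and 115 CPM at 0, 4, 8, 16 and 24 h. All fasted libraries lay above the fed one, by 1.72, 1.75, 0.75 and 1.49 on the log2 scale, and the 4 h and 8 h levels were not separated. Il1r1, the signalling receptor of IL-1, stood at 28.6, 55.3, 68.4, 42.3 and 35.5 CPM, and each of these levels was separated from the next by more than counting error. Its highest ratio to fed was 1.26 at 8 h (1.15 to 1.36), and at 24 h the ratio was 0.31. With no lower limit on mitochondrial UMIs the 24 h ratio of Il1r1 was -0.03. At 4 h and 24 h the Il6ra level depended on the cell: cells with 2 to 10% mitochondrial UMIs held 47.1 CPM at 4 h and 58.7 at 24 h, against 133 and 120 CPM in cells with 10 to 20%. In the fed library the same bins held 35.9 and 42.1 CPM. Within 10 to 20%, and within 5000 to 15000 nuclear UMIs per cell, Il6ra was higher than fed at all 4 times. Il1r1 also depended on the cell: with 2 to 10% mitochondrial UMIs it held 26.2 CPM in the fed library, 27.9 at 4 h and 22.0 at 24 h. In cells under 5000 nuclear UMIs it held 30.9 CPM in the fed library, 53.0 at 8 h (under 2-fold) and 21.4 at 24 h. The 24 h direction was thus turned in both strata.

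Nfkbia, the IκBα gene, was lowest in the fed library. It stood at 25.1, 44.2, 58.5, 55.4 and 51.3 CPM, so that its ratio to fed passed 2-fold at 8, 16 and 24 h (2.33-fold, 2.20-fold and 2.04-fold) and was 1.76-fold at 4 h. At 24 h the log2 ratio was 1.03 with an interval of 0.92 to 1.14, and it was under 2-fold in cells with 5000 to 15000 nuclear UMIs (0.93), with all UMIs in the denominator (0.96) and by the mean of per-cell CPM (0.98). In cells with 2 to 10% mitochondrial UMIs Nfkbia held 31.7 CPM in the fed library. There it was under 2-fold over fed at 8 and 16 h (56.9 and 51.5 CPM) and past 2-fold at 24 h (66.3 CPM). Over all cells, the 8 h and 16 h levels of Nfkbia were not separated. Cxcl1 was lowest at 8 h but second highest at 16 h, so no opposed order of the 2 genes is read. Barcodes with endothelial markers hold Nfkbia too: thinned to 1000 UMIs, 13.7% of 247 such barcodes of the fed library had an Nfkbia UMI, against 2.55% of its hepatocytes. Those barcodes lie mostly in the fed library, where Nfkbia was lowest. Without cells carrying markers of other types, the ratio of Nfkbia at 4 h was 0.91 instead of 0.81 on the log2 scale.

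Stat3, the transcription factor that IL-6 activates, stayed within 2-fold of fed over all cells. It stood at 111, 107, 94.4, 91.2 and 77.8 CPM, a 1.42-fold range over all libraries, with the fed and 4 h levels not separated and the 8 h and 16 h levels not separated. In cells under 5000 nuclear UMIs it was past 2-fold lower at 24 h (42.7 CPM, against 97.4 in the fed library), and with 2 to 10% mitochondrial UMIs it held 60.7 CPM at 4 h against 117 in the fed library. An exon of Stat5a lies on the opposite strand within the annotated span of Stat3, as do antisense or neighbouring exons for Il6ra (Gm42809), Cebpb (Tmem189) and Cebpd (Spidr). Whether counting used the strand is not given in the sources used here.

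Socs3 and Socs2 parted. Socs3 stood at 31.4, 7.66, 1.92, 12.6 and 2.18 CPM, highest in the fed library and next highest at 16 h, with the 8 h and 24 h levels (65 and 82 UMIs) not separated. It thus had the same highest and second highest libraries as Cxcl1, over a 16.3-fold range (12.7 to 21.3). Socs3 stayed under the 50 CPM minimum in every library and so enters no count of genes past 2-fold. Socs2 stood at 12.5, 54.3, 59.6, 21.4 and 19.2 CPM, lowest in the fed library. Its 4 h and 8 h levels were 4.35-fold and 4.78-fold over fed, while the 16 h and 24 h levels were 1.72-fold and 1.54-fold over fed. In cells with 2 to 10% mitochondrial UMIs Socs2 held 27.9 CPM at 4 h against 14.9 in the fed library, under 2-fold.

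Cebpb was the most abundant of the genes in UMIs, and its level over all cells was nearly flat. It stood at 475, 523, 507, 498 and 476 CPM, a 1.10-fold range. In cells with 20 to 30% mitochondrial UMIs it was not flat, at 203 CPM in the fed library (155 to 260, from 100 cells) and 529, 332 and 342 CPM at 4, 16 and 24 h. Cebpd was low at 4.63, 10.4, 12.5, 4.86 and 11.9 CPM. Its fed and 16 h levels were not separated, and its 4, 8 and 24 h levels were 2.24, 2.70 and 2.57 times the fed one. It also stayed under the 50 CPM minimum.

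Levels were then set against the whole table. A gene counts as higher or lower where it differed at least 2-fold from fed and reached 50 CPM in either library. At 4 h, 6 of the 9 genes reached the minimum: 2 were higher (Il6ra and Socs2) and 1 lower (Cxcl1), where 5.73% of all 2949 genes that reached it were higher and 5.97% lower. At 8 h, 7 reached it: 4 were higher (Il6ra, Il1r1, Nfkbia and Socs2) and 1 lower (Cxcl1), against 7.95% and 11.8% of 3020 genes. At 16 h, 5 reached it: 1 was higher (Nfkbia) and 1 lower (Cxcl1), against 3.31% and 4.04% of 2994 genes. At 24 h, 5 reached it: 2 were higher (Il6ra and Nfkbia) and 1 lower (Cxcl1), against 6.68% and 10.6% of 2981 genes. Since the genes were chosen with these levels known, nothing is read from the comparison. The minimum is also passed more easily by a gene that is high in one of the libraries compared.

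The rest of the pathway was taken from 6 lists of 105 genes that include the 9. Of the other 96 genes, 18 or 19 reached the minimum at each time, of which 1, 1, 1 and 0 were higher and 1, 3, 2 and 2 lower at 4, 8, 16 and 24 h. These are 5.26%, 5.26%, 5.56% and 0% higher and 5.26%, 15.8%, 11.1% and 11.1% lower, beside 5.73%, 7.95%, 3.31% and 6.68% higher and 5.97%, 11.8%, 4.04% and 10.6% lower over all genes. Their median log2 ratios to fed were -0.18, -0.28, -0.17 and -0.31, beside -0.03, -0.04, 0.00 and -0.03 over all genes that reached the minimum.

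**Figure D2:**
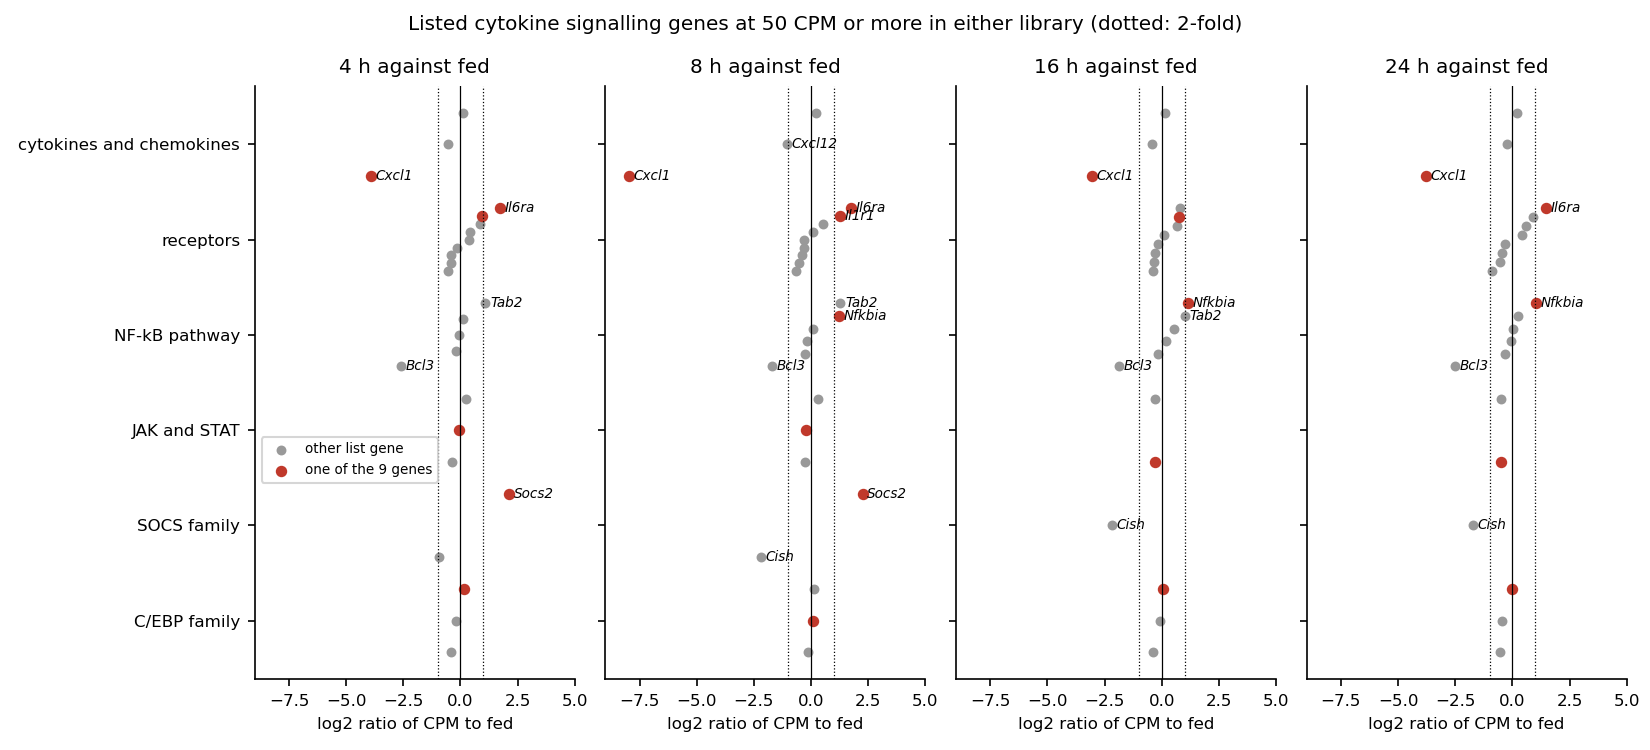
Log2 ratio of CPM to fed (horizontal axis) for the listed genes that reached 50 CPM in either library, by list (vertical axis) and time (panels); red points are among the 9 genes, grey points are other listed genes, dotted lines mark 2-fold, and genes past it are named. Cxcl1 lies farthest from 0 in every panel, at -7.97 at 8 h, and Bcl3 is past 2-fold lower in all 4.

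Of 23 cytokine and chemokine genes, Cxcl1, Cxcl12 and Ccl9 reached 50 CPM in any library, and 12, among them Il6, Tnf and Cxcl2, never reached 1 CPM. Cxcl12, a chemokine that acts through CXCR4, was at 287 CPM in the fed library and 138 CPM at 8 h, a ratio of -1.06, and its ratios at 4, 16 and 24 h were -0.54, 0.13 and -0.25. Ccl9 was within 2-fold throughout, between 57.1 and 88.8 CPM. Of 24 receptor genes, 8 or 9 reached the minimum at a given time, and among those Il6ra and Il1r1 passed 2-fold. The others with the largest ratios were Lifr, a receptor chain for LIF (137 CPM fed, 73.1 at 24 h), Prlr, the prolactin receptor (92.0 CPM fed, 170 at 24 h), Ifnar2, an interferon receptor chain (48.2 CPM fed, 86.4 at 4 h) and Ghr, the growth hormone receptor (644 CPM fed, 406 at 8 h).

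Within the NF-kB list, Bcl3 and Tab2 passed 2-fold besides Nfkbia. Bcl3, which encodes an atypical IκB protein of the nucleus, was at 64.7 CPM in the fed library and at 10.5, 19.7, 17.7 and 11.4 CPM afterwards. All 4 fasted libraries lay below the fed one by at least 1.72 on the log2 scale, so Bcl3 shared with Cxcl1 and Socs3 a highest level in the fed library, although its lowest was at 4 h. Tab2, an adaptor of the kinase TAK1 downstream of the IL-1 receptor, stood at 52.5, 112, 128, 106 and 62.8 CPM. The kinase genes Chuk and Ikbkb kept within 2-fold of fed, at 123 to 218 CPM and at 40.7 to 50.3 CPM. Of 17 JAK and STAT genes, 2 or 3 reached the minimum at a given time, and none of those passed 2-fold: Jak1, the kinase gene of many cytokine receptors, lay between 61.5 and 87.1 CPM, and the phosphatase gene Ptpn11 lay between 48.0 and 59.8 CPM. In the SOCS list, Cish, a feedback gene of STAT5 signalling, was at 61.3 CPM fed and at 31.5, 13.2, 13.5 and 18.7 CPM, so it was lower at 8, 16 and 24 h. Socs2, also known as a STAT5 target, was past 2-fold higher than fed at 4 and 8 h. At 16 and 24 h it was under the 50 CPM minimum and within 2-fold of fed. In the C/EBP list, Cebpa (223 to 308 CPM) and Cebpg (57.1 to 89.7 CPM) kept within 2-fold of fed.

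Genes with a pattern like that of Cxcl1 were sought among 171 genes with a mean of 50 CPM or more, a 4-fold range and a UMI in every library, by Pearson's r of log2 CPM over the 5 libraries. Ogt, which attaches O-linked N-acetylglucosamine to proteins, had r = 0.96 with 94.7, 43.6, 15.7, 74.5 and 43.1 CPM. Gpam, which starts glycerolipid synthesis, had r = 0.96 with 632, 201, 74.1, 201 and 140 CPM. Enpep, an aminopeptidase, had r = 0.96, and Ostc, a subunit of the oligosaccharyltransferase, had r = 0.96. In these 4 the fed library was highest and the 8 h library lowest, and the values come from the same libraries as those of Cxcl1.

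Per cell, Cxcl1 UMIs were spread over many fed hepatocytes. To compare cells of unlike depth, each was thinned to 1000 nuclear UMIs, and the expected share of cells with a UMI was computed. Of the hepatocytes, 10.6% had a Cxcl1 UMI in the fed library (9.92 to 11.3%), and 0.73%, 0.04%, 1.44% and 0.90% had one in the fasted libraries in order of time. Unthinned, the shares were 36.1%, 6.96%, 0.41%, 5.07% and 6.73%, at median depths of 4702.5, 9399, 13532, 3756 and 7201.5 UMIs. In the fed library, 3.61% of the 247 barcodes with endothelial markers had a Cxcl1 UMI after the same thinning (1.68 to 6.80%; median depth 1705 UMIs before thinning), below the hepatocytes. In the fasted libraries 0 of 7, 16, 44 and 19 such barcodes had one, which allows shares of up to 41.0%, 20.6%, 8.04% and 17.6% (exact Clopper-Pearson) and sets no useful background for the low shares there. Cells under 1000 nuclear UMIs were left out: 4, 25 and 122 at 4, 8 and 16 h. The thinned share of Il6ra was 3.81%, 10.3%, 12.3%, 6.43% and 8.71%, that of Socs2 1.20%, 4.37%, 5.96%, 1.92% and 1.63%, and that of Socs3 2.80%, 0.68%, 0.21%, 1.17% and 0.18%. In the fed library's endothelial-marker barcodes the shares were 0.64% for Il6ra, 1.96% for Socs2 and 3.06% for Socs3, so the fed hepatocyte shares of both SOCS genes lay at or below that background. No order is read from the shares of these 2 genes.

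Summed endothelial, myeloid, neutrophil and stellate markers were also highest in the fed library, while the sums of cholangiocyte, erythroid and lymphocyte markers were highest at 16, 8 and 24 h (301 CPM against 188 fed, 67.0 against 35.6 and 3.81 against 2.94). At 8 h the 4 haemoglobin genes of the erythroid list held no UMI, so that sum came from Alas2 alone. Of the cholangiocyte markers, Epcam, Krt19 and Krt7 held no UMI at 16 h. The 10 endothelial markers summed to 92.5, 13.3, 12.6, 33.1 and 19.4 CPM and the 11 myeloid markers to 55.4, 3.89, 0.44, 7.34 and 8.25 CPM, with 7 of the myeloid markers, among them Adgre1 and Clec4f, at 0 at 8 h. Without the cells that carried 3 or more such markers, the endothelial sum in the fed library was 10.6 CPM, the myeloid sum 6.79 CPM, and the fasted libraries held 3.47 to 7.67 and 0.36 to 2.01 CPM. The thinned share of Cxcl1 in the remaining fed hepatocytes was 10.8%. Fed cells that held a Cxcl1 UMI after thinning (862) carried fewer of these markers than those that held none (6964): 25.4 against 102 CPM for the endothelial and 18.2 against 60.8 CPM for the myeloid markers.

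The same fed cells were compared for the other genes. Socs3 stood at 37.5 CPM in cells with a thinned Cxcl1 UMI and 30.5 in those without, Stat3 at 121 and 109 CPM, Cebpb at 440.5 and 480.5 CPM, and Nfkbia at 24.1 and 25.3 CPM. The median depth of the cells was 5881 and 4557 UMIs, so they were not alike in depth. Of 2766 genes, the 5 with the lowest ratio in the cells with Cxcl1 were Cyp2a5 (79.0 against 166 CPM), Cyp2c37 (51.3 against 98.4), Oat (81.3 against 155), Tmsb4x (31.9 against 60.6) and Gulo (52.6 against 95.5). Cyp2c37, Oat and Gulo are also among the 14 central landmark genes used below, so this list is not separate from position along the lobule. The highest ratio was that of Egr1, an immediate-early gene, at 56.6 against 36.6 CPM. Pairs of the 9 genes were also counted in the same cells. Thinned to 1000 UMIs, 98 of the 180 combinations of pair and library had 5 or more expected cells, and in none did the interval of the observed count over the product of the shares exclude 1. At 3000 UMIs none of 150 did, and Cxcl1 with Socs3 in the fed library stood at 1.13 (0.96 to 1.32).

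Cells were placed along the lobule, which runs from the portal vessels to the central vein, by 12 portal and 14 central landmark genes, and in each library the portal-side and central-side groups, of 3 groups of equal size, were compared. Cxcl1 was higher on the portal side at 4 of the 5 times. Its portal and central levels were 149 and 94.5 CPM in the fed library. They were 11.1 and 4.75 CPM at 4 h, then 19.3 and 7.67 CPM at 16 h, then 9.97 and 6.79 CPM at 24 h. The log2 ratios were 0.66, 1.22, 1.33 and 0.55, all with intervals above 0. At 8 h, 5 portal and 8 central UMIs gave no direction. The upper quartile over all genes lay between 0.07 and 0.13 at the 5 times. Cxcl1 was thus higher in the fed library than in any fasted one in both groups. The portal-side group held more nuclear UMIs than the central-side group in every library, and depth was not matched. In the fed library Cxcl1 held 98.6 CPM in cells under 5000 nuclear UMIs and 149 CPM at 5000 to 15000. At 4 h these bins held 5.80 and 7.01 CPM, and cells of 15000 or more held 10.3 CPM. At 24 h the same bins held 10.2, 8.28 and 12.3 CPM. Whether depth enters the portal to central ratios was not tested.

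**Figure D3:**
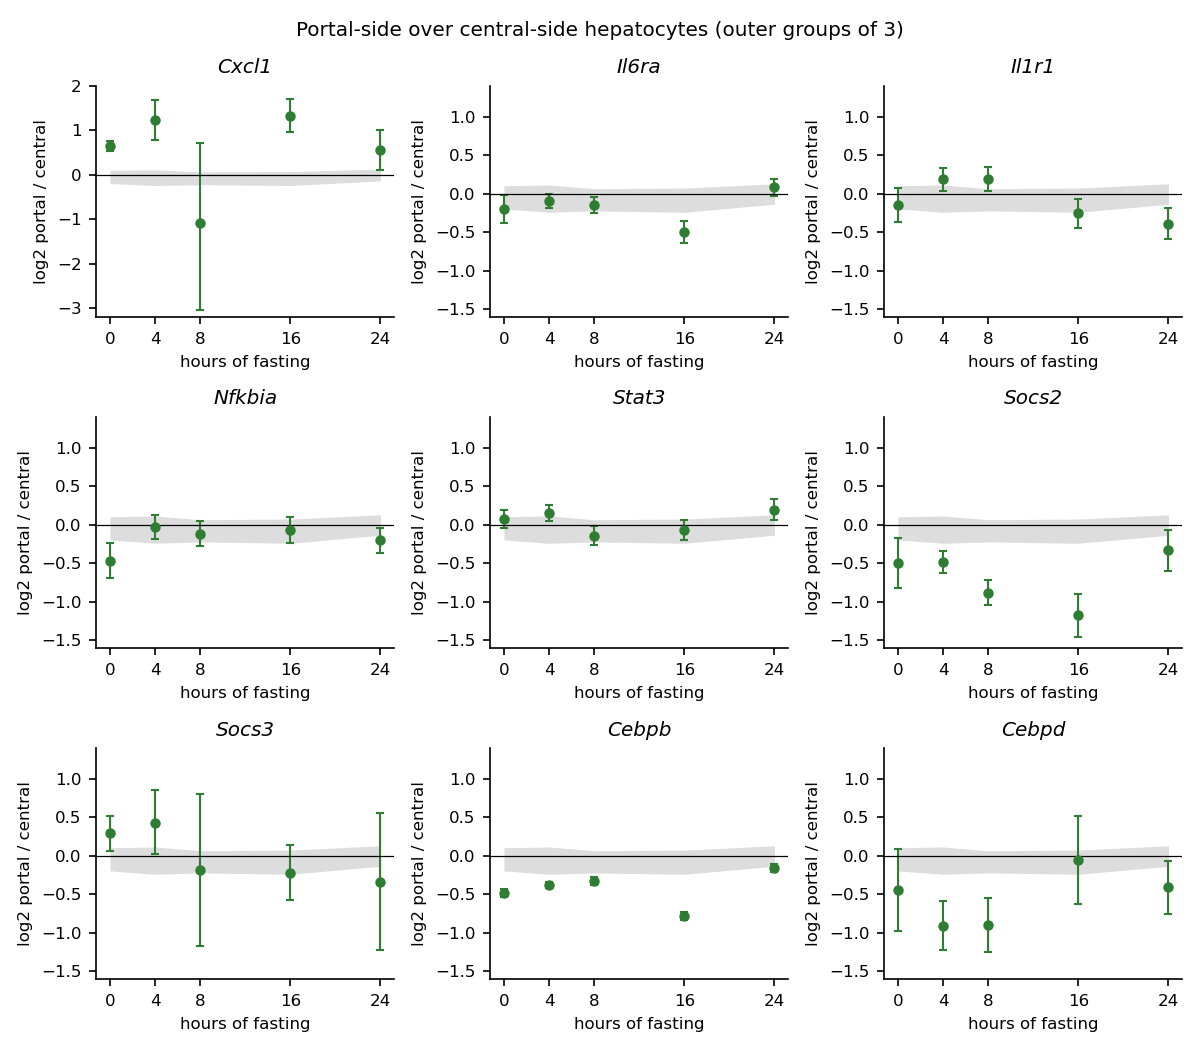
Log2 ratio of CPM in the portal-side over the central-side hepatocytes (vertical axis) against hours of fasting, with exact 95% intervals for counting error as bars and the interquartile range over all genes as the grey band. Cxcl1 lies above 0 except at 8 h (5 and 8 UMIs), while Socs2 and Cebpb lie below 0 at all 5 times.

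Socs2 and Cebpb were higher on the central side in every library. The log2 ratios of Socs2 were -0.50, -0.48, -0.88, -1.18 and -0.33, and those of Cebpb -0.48, -0.38, -0.32, -0.78 and -0.16. Cebpd was higher on the central side at 4, 8 and 24 h (-0.91, -0.90 and -0.41), and its intervals included 0 in the fed library and at 16 h. Socs3 was higher on the portal side in the fed library (0.29, 0.07 to 0.52) and at 4 h (0.43, 0.02 to 0.86), with intervals that included 0 later. Nfkbia was higher on the central side in the fed library (-0.46) and at 24 h (-0.20), and without cells carrying markers of other types the fed ratio was -0.19. With at most 15% mitochondrial UMIs, the 4 h ratios of Socs2 and Socs3 were 0.08 and -0.25, with intervals that included 0. Il6ra lay between -0.50 and 0.09, though with no lower limit on mitochondrial UMIs its 4 h ratio was 0.33 and with at most 15% its 24 h ratio was 0.55, and at 16 h its central level was 82.0 CPM against 58.2 on the portal side. Of the landmarks themselves, the portal gene Cyp2f2 had its smallest ratio at 24 h (0.35, against 1.23 in the fed library), as had the portal gene Hal (0.48, against 1.63) and the central gene Glul (-0.95, against -1.36). The central gene Cyp2e1 had -5.87 at 24 h and -5.63 in the fed library. Whether the cells were sorted less well at 24 h was not tested.

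Depth and mitochondrial share moved with time, so levels were also taken within strata. In cells with 5000 to 15000 nuclear UMIs, a range that every library holds, Cxcl1 stood at 149, 7.01, 0.25, 18.6 and 8.28 CPM. In cells with 10 to 20% mitochondrial UMIs it stood at 143, 8.16, 0.25, 16.5 and 9.43 CPM. The order of the libraries was the same in both as over all cells. Within 5000 to 15000 UMIs, Socs2 stood at 12.8, 56.2, 60.0, 30.7 and 20.0 CPM and Nfkbia at 25.3, 42.8, 57.5, 53.7 and 48.1 CPM. At 24 h Socs2 was not higher than fed in every stratum: in cells under 5000 UMIs it held 11.6 CPM against 11.7 in the fed library, and with 2 to 10% mitochondrial UMIs 14.1 against 14.9 CPM.

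**Figure D4:**
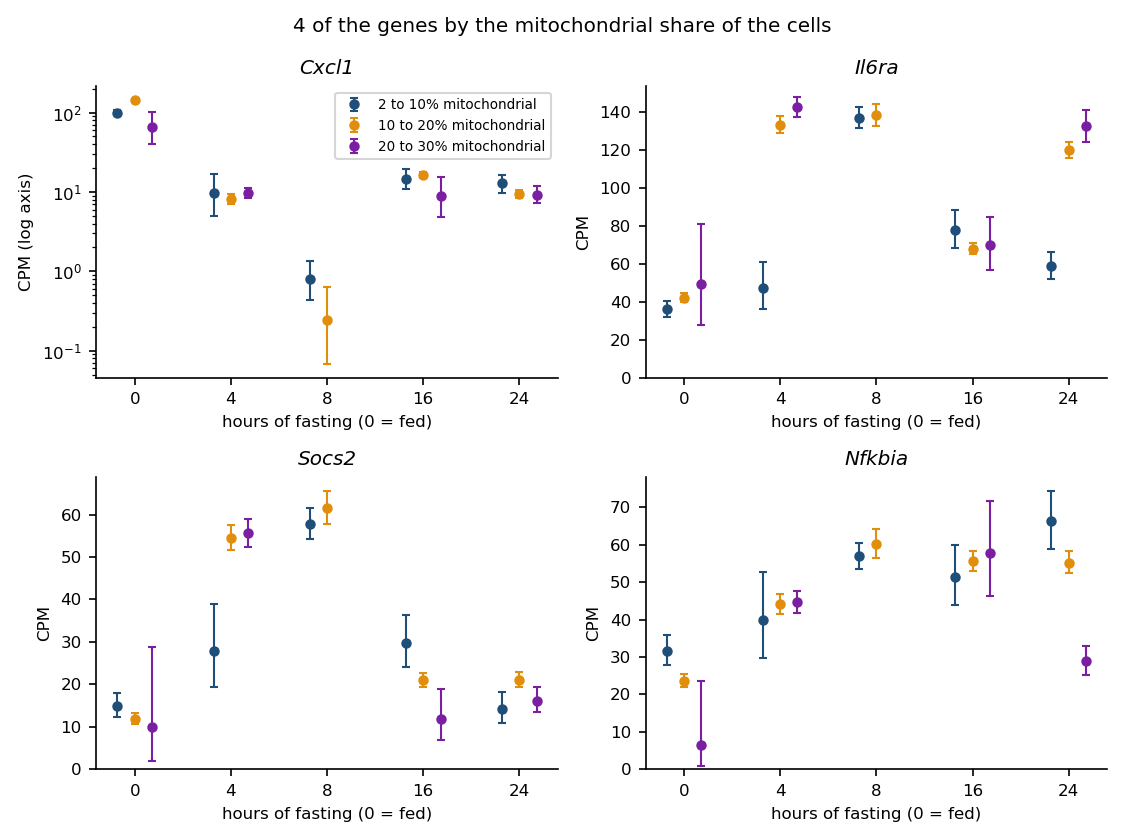
Level (CPM, vertical axis; log axis for Cxcl1) of 4 of the genes in cells with 2 to 10%, 10 to 20% and 20 to 30% mitochondrial UMIs, by hours of fasting, with exact 95% Poisson intervals; strata with under 50 cells are left out. Cxcl1 is highest in the fed library in every stratum, and Il6ra at 4 h and 24 h is lower in the stratum with 2 to 10% (47.1 and 58.7 CPM) than in that with 10 to 20% (133 and 120 CPM).

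Side lists of genes that inflammatory signals are known to raise were also summed. The 16 acute-phase genes, which C/EBP factors and STAT3 drive in liver, summed to 19467, 20243, 14653, 40757 and 13662 CPM at 0, 4, 8, 16 and 24 h. Saa1, the gene of serum amyloid A1, stood at 382.5, 1148, 37.9, 4880 and 21.1 CPM, and Lcn2, the gene of lipocalin 2, at 10.7, 45.9, 7.07, 287 and 16.0 CPM. Both were highest at 16 h, where Cxcl1 and Socs3 were at their second highest level. Of the 16 acute-phase genes, 6 were at least 2-fold higher than fed at 16 h and 1 lower, with no CPM minimum. The 18 immediate-early genes, which cell isolation can also raise, summed to 751, 684, 464, 936 and 436 CPM, and Egr1 stood at 39.1, 94.1, 17.8, 150.1 and 20.5 CPM. By the same rule, 5 of these 18 genes were higher than fed and 6 lower at 4 h, and 5 were higher and 3 lower at 16 h. The part of both lists in the levels of Cxcl1 and Socs3 was not tested.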

How the data were processed

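The deposited matrix holds UMI counts per gene and barcode, which the authors made with Cell Ranger 6.0.1 on mm10, per the submitters' processing notes. How reads were filtered is not given in the sources used here. It has 50000 barcodes, 10000 per library, which a deposited table assigns to time points, and 40002260 to 68330252 UMIs per library. Counts were summed by gene symbol over the barcodes kept, with no doublet caller and no clustering. Ratios carry exact conditional binomial intervals, levels exact Poisson intervals and shares exact Clopper-Pearson intervals (95%, counting error only). UMIs collapse amplification copies, but the cells of a library are not replicates. No test was run, since each time has 1 library. No ratio was given against a count of 0. Only in the count of listed genes with no expression minimum were counts under 3 set to 3, and genes under 3 in both libraries were left out there.

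The genes, lists, cell limits and the rule for genes named were chosen with earlier results of these data known. That rule takes the 9 genes, up to 4 further genes per list with the largest ratio to fed at any time, and the 5 genes most like Cxcl1, of which 1 is not reported here; genes of the side lists and of the comparison of fed cells were chosen after their values were seen. Cells carrying other-type markers had 3 or more markers of 1 other cell type. Python 3.11.15 and numpy 2.4.6 were used. The ratio step was tested on simulated counts. Positions are from GENCODE M21 (GRCm38), the same assembly as mm10.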

Additional observations from a re-analysis of the deposited data

Results flagged for a closer look

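Il1r1 and Stat3 changed side along the lobule between libraries, with intervals on opposite sides of 0. The portal to central log2 ratio of Il1r1 was 0.20 at 8 h (0.04 to 0.35) and -0.39 at 24 h (-0.58 to -0.19), and that of Stat3 was -0.14 at 8 h (-0.27 to -0.02) and 0.19 at 24 h (0.06 to 0.33). The difference between times was not tested. Beside the other genes, at 8 h, 55.4% of all genes had a larger ratio in either direction than Stat3 and 42.0% than Il1r1, and at 24 h 32.7% and 8.94% did. At 8 h the median over all genes was -0.083 (quartiles -0.22 and 0.067). With at most 15% mitochondrial UMIs, the 24 h ratio of Il1r1 was 0.14, on the portal side.

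Barcodes with under 2% mitochondrial UMIs were left out of the levels above, and they number 2172, 5345, 576, 234 and 5400 at 0, 4, 8, 16 and 24 h. In them, with those carrying erythroid markers left out, Nfkbia stood at 64.5 CPM at 24 h against 29.4 in the fed library, and Cebpb at 730.4 CPM at 24 h against 351 in the fed library. In the hepatocytes kept, Cebpb was at 476 and 475 CPM at these times.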

How the results depend on the processing

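No paired analysis was possible because each time has 1 library. Cxcl1 was lower than fed at all 4 times under all 10 alternatives, at -4.41 to -3.90, -9.24 to -7.87, -3.12 to -2.87 and -4.17 to -3.45 on the log2 scale at 4, 8, 16 and 24 h. With at most 15% mitochondrial UMIs it was -4.39, -2.87 and -3.45 at 4, 16 and 24 h. Cells of 5000 to 15000 nuclear UMIs gave -4.41, -9.24 and -4.17 at 4, 8 and 24 h. Cells of 10 to 20% mitochondrial UMIs gave -4.13 at 4 h and -9.18 at 8 h. Both strata were added after seeing the data. Of 360 ratios to fed of the 9 genes under alternatives, 285 stayed within the counting interval of the main value.

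The listed genes higher than fed numbered 3, 5, 2 and 2 at 4, 8, 16 and 24 h, and those lower 2, 4, 3 and 3. The count higher at 4 h was 1 with all UMIs in the denominator, with at most 15% mitochondrial UMIs, with no lower limit on them, or with the mean of per-cell CPM. At 16 h it was 0 with all UMIs in the denominator. At 24 h it was 1 with all UMIs in the denominator, with the mean of per-cell CPM or with 5000 to 15000 nuclear UMIs per cell. A minimum of 10 CPM gave 5, 11 and 8 lower at 4, 8 and 24 h and 4 higher at 24 h. No minimum gave 21, 30, 15 and 24 lower at 4, 8, 16 and 24 h and 4 higher at 24 h.

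Portal to central ratios whose interval excluded 0 changed sign for Socs2 (0.084), Socs3 (-0.25) and Il6ra (0.18) at 4 h and Il1r1 at 24 h (0.14) with at most 15% mitochondrial UMIs, and for Il6ra at 0, 4 and 8 h (0.050, 0.33 and 0.0014) with no lower limit. Ratios whose interval held 0 changed sign for Nfkbia at 4 h (to 0.48) and 8 h (0.016), Il1r1 at 0 h (0.11) and Socs3 at 24 h (0.12). The cause was not tested. Shares of cells with a UMI moved with the depth of thinning in 89 of 90 values. The 18 UMIs of Cxcl1 at 8 h limit every split of that value.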
